A study of Rattus norvegicus with 16 samples.

Results

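Chemokines are small secreted proteins that guide leukocytes, and each acts through a receptor of the G protein-coupled family. The genes described here are the chemokines and chemokine receptors of rat skin, chosen by symbol alone: Ccl, Ccr, Cxcl or Cxcr followed by a digit, or a symbol starting with Cx3c, Xcl1 or Xcr1. The rule found 41 genes among the 14217 genes measured. Values were taken from dorsal hairy skin of adult female Sprague-Dawley rats on 16 Affymetrix arrays, 1 per sample. Denervated skin came from 5 rats sampled at 14 days and 5 sampled at 7 days, and 6 naïve rats gave the skin they are set against. In the denervated rats the dorsal cutaneous nerves of the lower thoracic segments had been tied and cut, and skin was taken from the rostral denervated zone. By the paper the incision was made on the right side, opposite the cut nerves, which spared the skin of the left side. Naïve rats had no surgery, so effects of the operation, with its incision, and the loss of nerves cannot be told apart in any comparison with them. By the series description every sample also holds the cutaneous trunci muscle, which has another nerve supply and was not cut off from it. Of 8 skeletal muscle markers measured, 5 were lower at 14 days and none at 7 days.

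Inflammatory chemokines are switched on by injury and infection and bring monocytes, neutrophils, eosinophils and effector T cells into tissue. Homeostatic chemokines are made steadily by stromal cells, keratinocytes and lymphoid tissue and set where leukocytes reside. Some members serve both roles and are called dual here. In skin, keratinocytes, fibroblasts, endothelium and resident macrophages are all known sources. Of 54 genes listed by role, 41 were measured, comprising 16 inflammatory, 7 homeostatic and 6 dual ligands, with 6 inflammatory, 3 homeostatic and 3 dual receptors. The other 13 were not analysed here, and they include Ccr7, Ccr8, Ccr9, Cxcr6 and Xcr1, so several receptors are missing from the pairs below. A member was called dim when its highest group mean lay under 5.50, the 25th percentile of all gene means on the log2 scale, and 15 of the 41 members were dim. All values below are log2 values or differences of log2 values, and array values are listed by replicate number, which carries no order.

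The arrays were not equally alike. The lowest correlation between 2 arrays was 0.993 at 14 days and 0.978 at 7 days, against 0.931 in naïve skin. Marker lists of cell types, scored as the mean deviation of their genes from the mean over all arrays, show where naïve arrays parted. The hair follicle score (11 of 22 listed genes measured) was 1.66 to 1.81 at 14 days and -0.68 to 1.54 at 7 days. In naïve skin it was 1.68 and 1.88 in arrays 1 and 2, and -3.68 to -3.38 in arrays 3 to 6. The macrophage and monocyte score (14 of 15 genes, none dim) was -0.08 to 0.27 at 14 days and 0.28 to 1.03 at 7 days, against -1.77 to 0.53 in naïve skin. Its lowest values were -1.42 and -1.77 in naïve arrays 4 and 5. Precision throughout is set by how few arrays each group holds.

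The first question was how chemokine genes differ from naïve skin at each time. Genes were compared with limma, with Benjamini-Hochberg adjustment over all 14217 genes, and an adjusted p under 0.05 counts as a call. At 7 days 4 members rose and 2 fell, 6 of 41 or 14.6% against 10.5% of all genes called in either direction. By direction, 9.76% of members were called higher, against 7.85% of genes, and 4.88% were called lower, against 2.66% of genes. With array medians subtracted that last order turned, with 7.32% of members called lower, against 10.5% of genes. At 14 days 5 members rose and 2 fell, 17.1% against 23.5% of all genes. Here 12.2% of members were called higher, against 8.95% of genes, and 4.88% were called lower, against 14.6% of genes. Most members were not called, 35 at 7 days and 34 at 14 days, with unadjusted p under 0.05 for 10 and 11 members. Groups did not overlap for 2 members at 7 days (4.88%, against 4.66% of genes) and for 2 members at 14 days (4.88%, against 10.3% of genes). Both comparisons use the same naïve arrays, and the counts moved with single arrays. The number that rose at 7 days was 8 without naïve array 3, 19.5% against 8.75% of genes. It was 2 without 7-day array 3, and 1 without naïve array 4 or 7-day array 4. The number that rose at 14 days was 1 without naïve array 4 or 14-day array 5. In a model of only the 7-day and naïve arrays no member was called. Except without naïve array 3, the share over all genes was not computed for these settings. These counts therefore cannot show whether the members moved apart from genes at large.

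**Figure D1:**
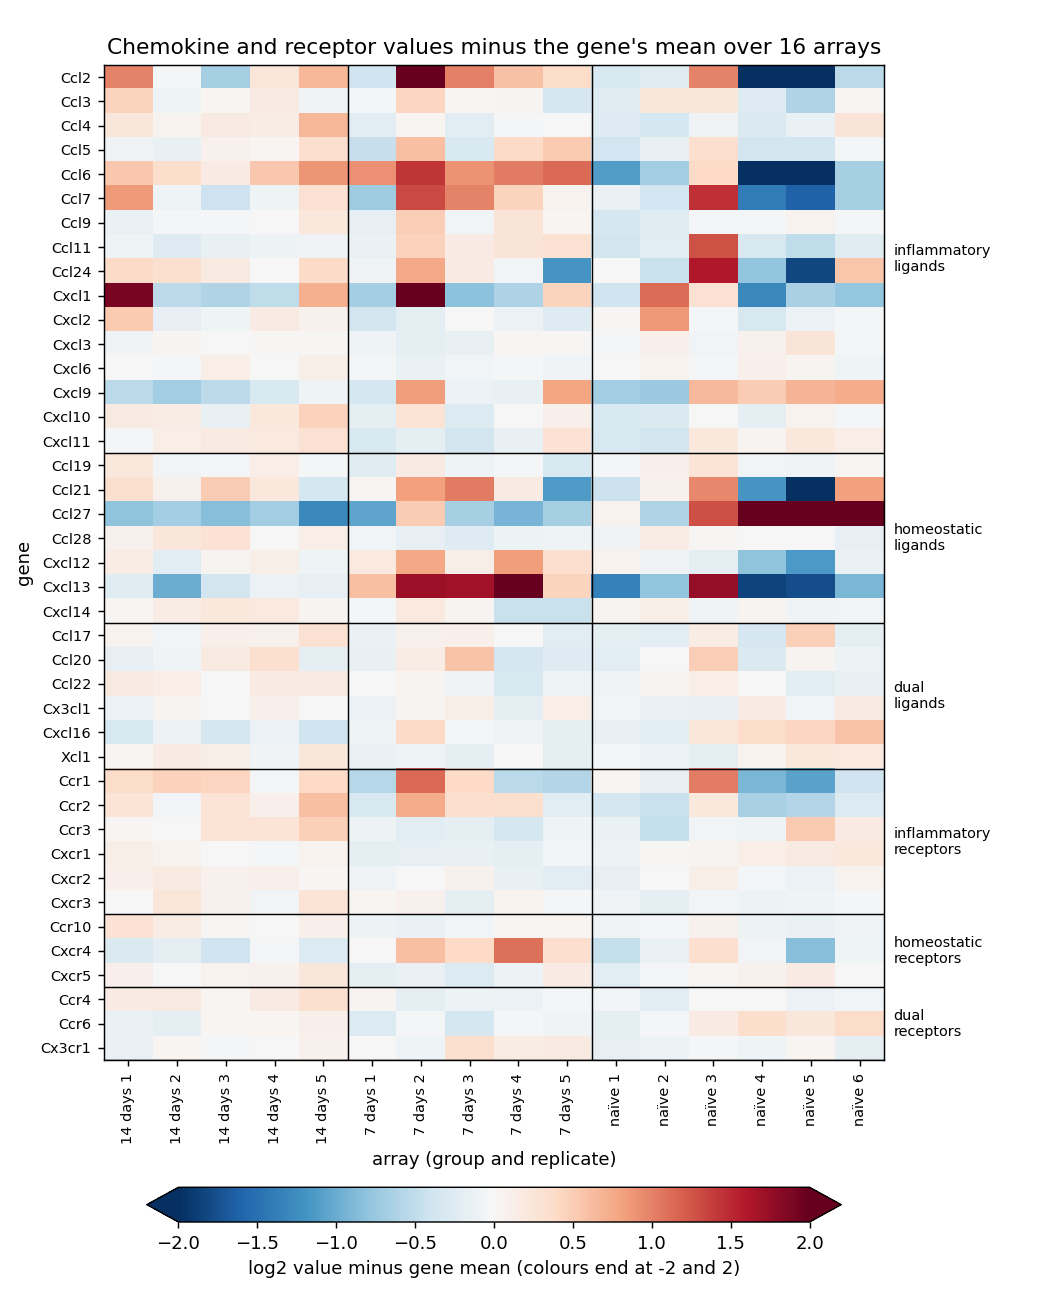
All 41 members (rows, grouped by role) on the 16 arrays (columns), as log2 value minus the gene's mean over all arrays. Ccl6, Cxcl13 and Ccl27 carry the strongest colours, and naïve arrays differ among themselves for Ccl27, Ccl6 and Cxcl9.

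The inflammatory and homeostatic members moved by small amounts as classes. The median log2 difference of the 22 inflammatory members was 0.21 at 14 days and 0.10 at 7 days against naïve skin. For the 10 homeostatic members it was 0.14 and -0.05, for the 9 dual members 0.08 and -0.00, and for all genes 0.02 and -0.02. At 7 days 3 homeostatic members rose (Cxcl12, Cxcl13 and Cxcr4) and 1 fell (Ccl27), while 1 inflammatory member rose (Ccl6) and 1 fell (Cxcr1). At 14 days none of the 10 homeostatic members rose and Ccl27 fell, while 4 of the 22 inflammatory members rose (Ccl6, Ccl4, Ccr2 and the dim Cxcr3). Among the dual members Ccr4 rose and Cxcl16 fell at 14 days, and none was called at 7 days. For all genes the shares called higher and lower were 7.85% and 2.66% at 7 days, and 8.95% and 14.6% at 14 days. The classes hold few members, and whether they differ from each other or from all genes was not tested. With the dimmest 25% of genes left out, and the dim members with them, the inflammatory median at 14 days was 0.40 and the homeostatic median at 7 days was 0.18.

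**Figure D2:**
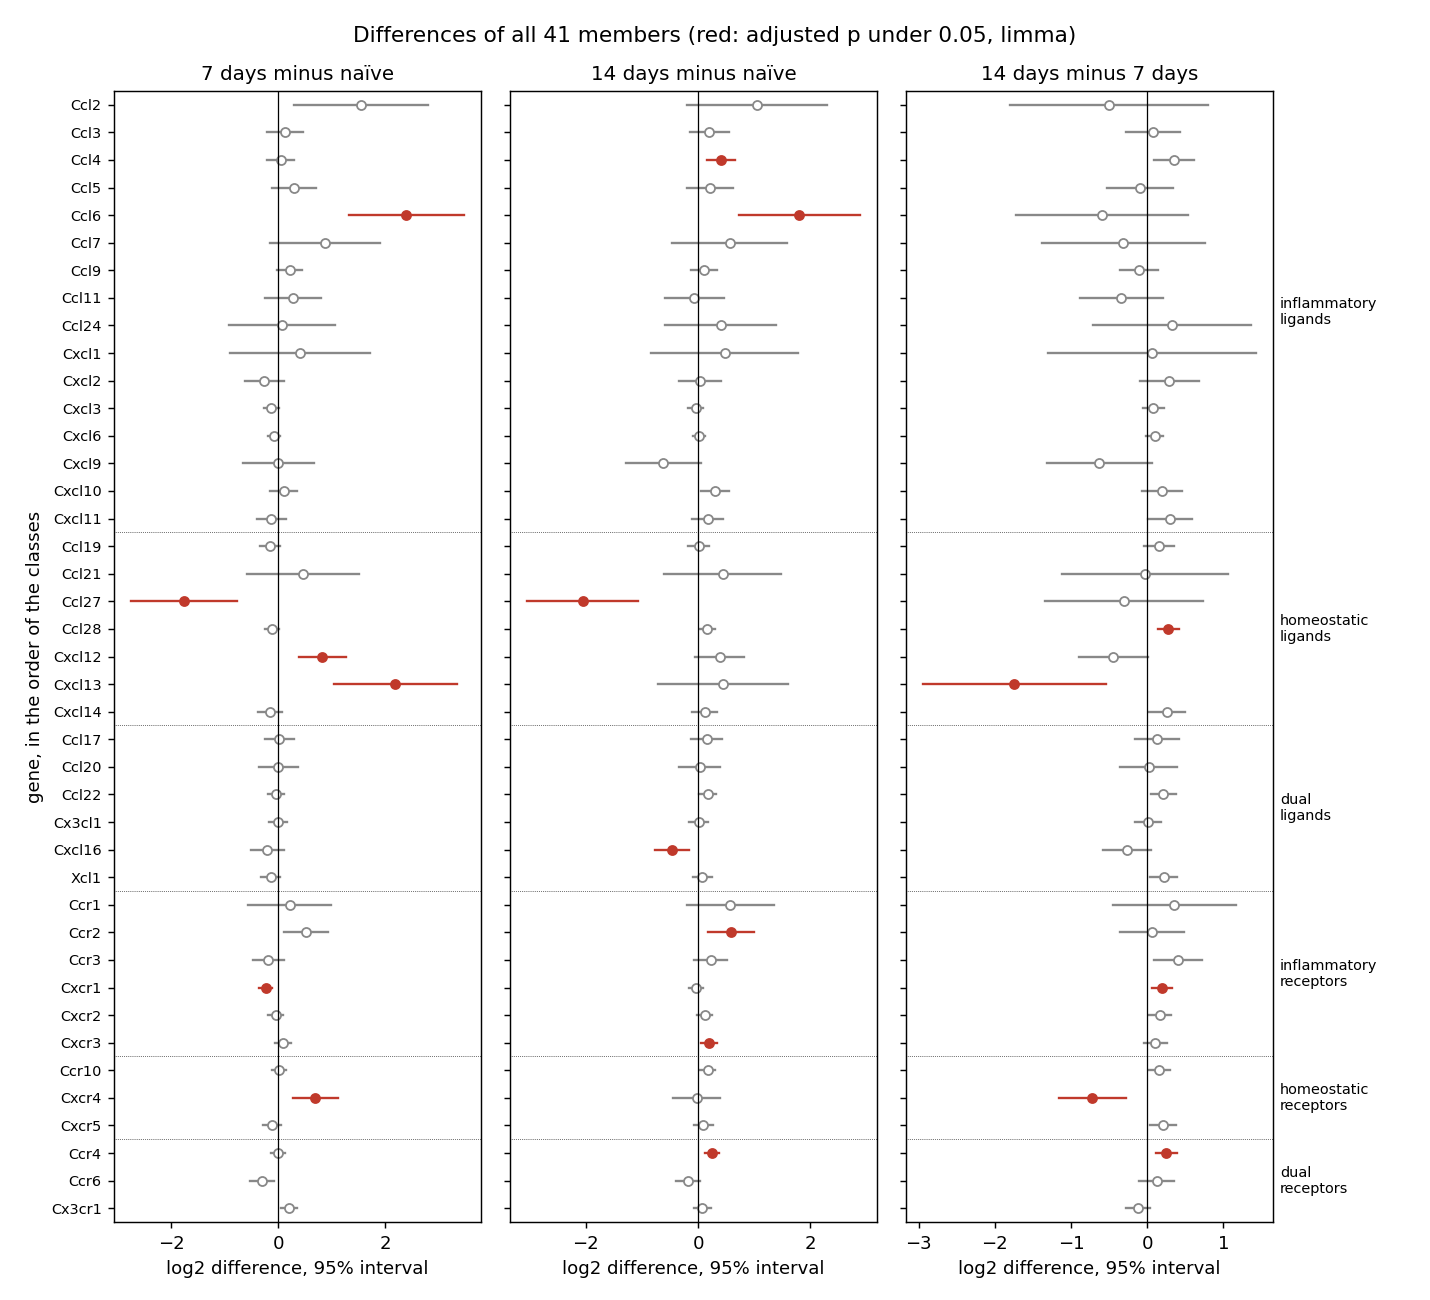
Log2 difference with its 95% interval for each of the 41 members, from left to right for 7 days minus naïve, 14 days minus naïve and 14 days minus 7 days. Red filled points have an adjusted p under 0.05 by limma, 6, 7 and 5 members, and grey open points do not. The widest intervals belong to Ccl2, Ccl6, Cxcl1 and Cxcl13.

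Cxcl12 and its receptor Cxcr4 were both higher at 7 days. Cxcl12 is made by fibroblasts and vascular cells, and holds Cxcr4-bearing leukocytes and progenitors in tissue. Cxcl12 measured 9.84, 10.43, 9.77, 10.48 and 9.98 in the 7-day arrays, and in naïve skin 8.51, 9.48 and 9.72 as lowest, median and highest. The 7-day and naïve arrays did not overlap. It rose by 0.83 on the log2 scale at 7 days, 1.78-fold (SE 0.205, n = 5 and 6, adjusted p = 0.0202 by limma). At 14 days the arrays measured 9.80, 9.43, 9.70, 9.77 and 9.56, and 0.38 above naïve skin did not pass (adjusted p = 0.174). The gene value is the median of 3 probesets, which gave 1.40, 1.54 and 0.64 at 7 days, each past the threshold on its own. At 14 days they gave 0.86, 1.12 and 0.25, and the second passed (adjusted p = 0.0432). The 7-day call was lost without naïve array 4 (0.74, adjusted p = 0.05), without 7-day array 4 (0.73, adjusted p = 0.0651), without naïve arrays 4 and 5 together (0.53, adjusted p = 0.0680), and with the hair follicle score as covariate (0.68, adjusted p = 0.0557). Fibroblast markers moved as well, with 2 of 7 higher and a score of 0.13 to 0.89 at 7 days, against -2.30 to 0.35 in naïve skin, and their part in the result was not tested. In bulk tissue, fewer cells of a type and less RNA per cell cannot be told apart.

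Cxcr4 is carried by most leukocytes and by sprouting endothelium. It measured 6.29, 6.40, 6.18, 6.54 and 6.31 in the 14-day arrays and 6.57, 7.18, 6.98, 7.69 and 6.91 in the 7-day arrays, with 5.73, 6.47 and 6.91 as lowest, median and highest in naïve skin. All 5 arrays at 14 days lay below all 5 at 7 days, while the 7-day and naïve arrays overlapped. Against naïve skin it rose by 0.70 at 7 days (SE 0.197, adjusted p = 0.0354), a 1.62-fold difference. The difference at 14 days was -0.02 (adjusted p = 0.942). At 14 days it was lower than at 7 days by a log2 difference of -0.72 (SE 0.206, adjusted p = 0.0272). Its 3 probesets gave 0.87, 0.73 and 0.69 at 7 days, and each passed. The 7-day call was lost when naïve array 4, 5 or 6 or 7-day array 2, 3 or 4 was left out, with differences of 0.54 to 0.73 and adjusted p of 0.0512 to 0.101, and without naïve arrays 4 and 5 together (0.58, adjusted p = 0.131). The difference between the times was lost without 7-day array 2, 3 or 4 or 14-day array 3 or 5, at -0.74 to -0.57 and adjusted p of 0.0513 to 0.0654. Vascular endothelium markers followed the same course. Of 7 measured, 5 were higher at 7 days and none at 14 days, and 4 were lower at 14 than at 7 days. Their score was -0.23 to -0.08 at 14 days and -0.10 to 0.66 at 7 days, against -0.58 to 0.24 in naïve skin. Macrophage and monocyte markers ran a like course. Of 14 measured, 12 were higher at 7 days and 2 at 14 days, and 4 were lower at 14 than at 7 days. The part of either list in the result was not tested.

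Cxcl13 had the second largest difference of any member at 7 days. It draws B cells through Cxcr5 and marks lymphoid follicles, and macrophages can make it. The arrays measured 7.07, 6.32, 6.94, 7.20 and 7.15 at 14 days and 7.92, 9.03, 9.0, 9.69 and 7.76 at 7 days. Naïve arrays measured 5.46, 6.18 and 9.07 as lowest, median and highest, and the 9.07 came from array 3 while the other 5 reached at most 6.53. Only that array overlapped the 7-day range. Cxcl13 rose by 2.19 at 7 days, 4.56-fold (SE 0.540, adjusted p = 0.0202), and by 2.70 without naïve array 3 (adjusted p = 0.000768). The call was lost without naïve array 4 (1.98, adjusted p = 0.0504), 7-day array 3 (2.11, adjusted p = 0.0526) or 7-day array 4 (1.94, adjusted p = 0.0652), and without naïve arrays 4 and 5 together (1.69, adjusted p = 0.126). At 14 days the difference from naïve skin was 0.44 (adjusted p = 0.567), and Cxcl13 was below its 7-day level by a difference of -1.74 (SE 0.564, adjusted p = 0.0434). That last call was lost on leaving out naïve array 6, 7-day array 2, 3 or 4, or any of the 14-day arrays, at -1.81 to -1.49 and adjusted p of 0.0529 to 0.107, and after quantile normalization (-1.66, adjusted p = 0.0652) or with the hair follicle covariate (-1.59, adjusted p = 0.0596). Its receptor Cxcr5 was not called, at 0.09 at 14 days and -0.11 at 7 days. The 4 measured B cell markers were all dim. None was called at 7 days, 1 was higher at 14 days, and 2 were higher at 14 than at 7 days, where Cxcl13 was lower. Their part in the result was not tested.

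Ccl6 had the largest rise among the members at both times. It is a rodent chemokine made by macrophages and other myeloid cells, and in mice it acts through Ccr1. The 14-day arrays measured 9.77, 9.58, 9.39, 9.77 and 10.12 and the 7-day arrays 10.15, 10.66, 10.14, 10.28 and 10.37. In naïve skin the lowest, median and highest values were 5.51, 8.33 and 9.64. Every 7-day array lay above every naïve array, while at 14 days the groups overlapped through naïve array 3. Ccl6 rose by 2.40 at 7 days, 5.27-fold (SE 0.508, adjusted p = 0.00997), and by 1.81 at 14 days, 3.50-fold (SE 0.508, adjusted p = 0.0234). The 7-day call held with each array left out in turn, at 1.92 to 2.74. It was lost in a model of only the 7-day and naïve arrays (adjusted p = 0.0585). At 14 days it was lost without naïve array 4 (1.65) or 14-day array 5 (1.71), both with an adjusted p of 0.0558. It was also lost with the hair follicle covariate (1.44, adjusted p = 0.251) and with replicate number in the model (1.94, adjusted p = 0.0555). With only the 14-day and naïve arrays in the model it was lost too (adjusted p = 0.0531). The difference of 14 minus 7 days was -0.59 (adjusted p = 0.428). Of the 14 macrophage markers, 12 were higher at 7 days and 2 at 14 days, and 4 were lower at 14 than at 7 days. Naïve arrays 4 and 5, with the lowest macrophage scores, had Ccl6 at 7.16 and 5.51, and naïve array 3, with the highest, had 9.64. Without arrays 4 and 5 Ccl6 rose by 1.60 at 7 days (adjusted p = 0.00776) and by 1.01 at 14 days (adjusted p = 0.0306). The part of these markers in the result was not tested.

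Promoter sequence is shown for the 5 members with the largest differences among those called at 7 days, so that the start sites can be set against each other. The 120 bases are from RefSeq promoters of the GRCr8 build, 5′ to 3′ on the strand of the gene, with capitals at the TATA box letters TATAAA on either strand. Cxcl12 on the plus strand at chr4:152060661-152060780 and Ccl27 on the minus strand at chr5:61741780-61741899 hold none in this window. Cxcl13 lies on the minus strand at chr14:13917921-13918040, Ccl6 on the minus strand at chr10:68883367-68883486 and Cxcr4 on the minus strand at chr13:42634289-42634408.
Cxcl12: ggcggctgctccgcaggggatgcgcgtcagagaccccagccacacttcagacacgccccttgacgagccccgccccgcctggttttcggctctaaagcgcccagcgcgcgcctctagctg
Cxcl13: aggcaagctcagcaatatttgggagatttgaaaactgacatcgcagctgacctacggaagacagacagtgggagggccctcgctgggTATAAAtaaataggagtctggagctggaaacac
Cxcr4: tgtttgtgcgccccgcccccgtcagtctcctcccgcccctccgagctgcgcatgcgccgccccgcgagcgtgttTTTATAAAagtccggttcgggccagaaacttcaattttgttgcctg
Ccl6: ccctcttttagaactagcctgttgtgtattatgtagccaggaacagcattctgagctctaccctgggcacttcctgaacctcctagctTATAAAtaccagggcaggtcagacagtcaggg
Ccl27: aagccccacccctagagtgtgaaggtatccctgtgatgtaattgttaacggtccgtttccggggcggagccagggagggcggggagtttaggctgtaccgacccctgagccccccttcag

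The other monocyte attractants stood higher on average but were not called at 7 days. Ccl2 is a main ligand for Ccr2, the receptor that brings inflammatory monocytes from blood. It measured 8.74, 7.71, 7.08, 7.98 and 8.41 in the 14-day arrays and 7.34, 9.88, 8.75, 8.33 and 8.11 in the 7-day arrays, against 5.10, 7.32 and 8.75 as lowest, median and highest in naïve skin. The groups overlapped at both times. The differences were 1.05 at 14 days (adjusted p = 0.191) and 1.55 at 7 days (SE 0.585, adjusted p = 0.0975). Without naïve array 3, which had the 8.75, the 7-day difference was 1.91 and passed (adjusted p = 0.0338). Without naïve arrays 4 and 5, which had the lowest values, it was 0.26 at 14 days (adjusted p = 0.739) and 0.76 at 7 days (adjusted p = 0.434). Ccl7, a second Ccr2 ligand, showed 0.57 at 14 days and 0.88 at 7 days, and without naïve array 3 its 7-day difference was 1.26 (adjusted p = 0.0457).

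Ccr2 itself measured 6.29, 5.97, 6.29, 6.12 and 6.61 at 14 days and 5.72, 6.75, 6.36, 6.34 and 5.80 at 7 days, against 5.37, 5.63 and 6.23 as lowest, median and highest in naïve skin. It rose by 0.58 at 14 days, 1.50-fold (SE 0.189, adjusted p = 0.0383), and the 0.52 at 7 days did not pass (adjusted p = 0.0868). The ranges overlapped at both times. At 14 days the call was lost on leaving out naïve array 4, 5 or 6 or 14-day array 1, 3, 4 or 5, with differences of 0.49 to 0.62 and adjusted p of 0.0584 to 0.0970. It was also lost without naïve arrays 1 and 2 (0.56, adjusted p = 0.0535), without arrays 4 and 5 (0.45, adjusted p = 0.179) and with the hair follicle covariate (0.73, adjusted p = 0.130). At 7 days it passed without naïve array 3 (0.63, adjusted p = 0.0339) or 7-day array 1 (0.64, adjusted p = 0.0436).

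Ccl4, which with Ccl3 and Ccl5 attracts monocytes and T cells, rose at 14 days. It measured 5.97, 5.82, 5.93, 5.88 and 6.40 at 14 days and 5.51, 5.78, 5.51, 5.71 and 5.74 at 7 days, against 5.39, 5.54 and 6.00 in naïve skin as lowest, median and highest. All arrays at 14 days lay above those at 7 days, and 1 naïve array reached into the 14-day range. The rise at 14 days was 0.40 (SE 0.117, adjusted p = 0.0269), and it was lost without naïve array 4 (0.37, adjusted p = 0.0615) or 14-day array 5 (0.30, adjusted p = 0.0649). It was also lost with array weights (0.21, adjusted p = 0.124), without naïve arrays 1 and 2 (0.32, adjusted p = 0.0550) and without naïve arrays 4 and 5 (0.36, adjusted p = 0.108). At 7 days the difference was 0.05 (adjusted p = 0.794). Ccl3 and Ccl5 were not called, at 0.20 and 0.21 at 14 days and 0.13 and 0.31 at 7 days. Their shared receptor Ccr1 was not called either, at 0.58 at 14 days (adjusted p = 0.248) and 0.22 at 7 days. Ccl9, a macrophage chemokine known from mice, was dim and not called.

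**Figure D3:**
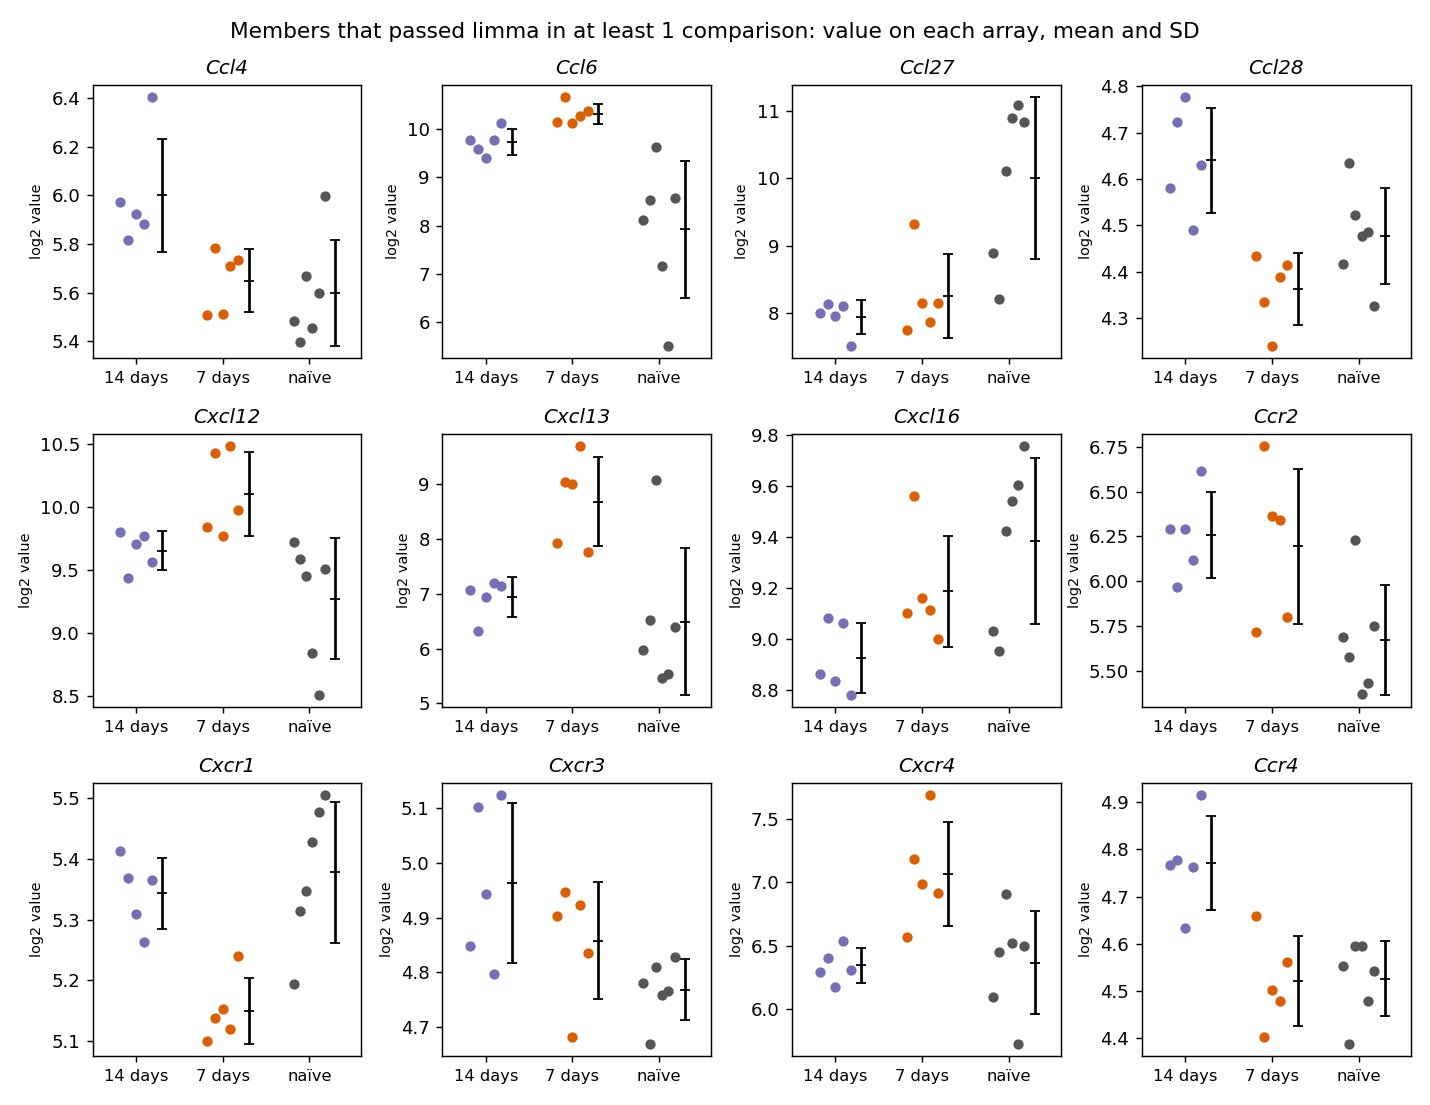
The 12 members that passed limma in at least 1 comparison, with 1 point per array at 14 days, at 7 days and in naïve skin, and the mean with its SD beside each group. Panels have separate log2 axes that do not start at 0. Ccl6 and Cxcl12 at 7 days and Ccr4 and Ccl27 at 14 days do not overlap naïve skin, Ccl27 by a narrow gap (8.14 and 8.21), and Cxcr1, Cxcr3, Ccr4 and Ccl28 lie in narrow ranges of low values.

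The keratinocyte chemokine Ccl27 had the largest fall of any member. Ccl27 is made by the epidermis and brings skin-homing T cells through Ccr10. It measured 8.01, 8.14, 7.95, 8.11 and 7.51 in the 14-day arrays and 7.75, 9.31, 8.15, 7.87 and 8.15 in the 7-day arrays. The naïve arrays 1 to 6 measured 8.89, 8.21, 10.10, 10.90, 11.09 and 10.83, with a median of 10.47. Every 14-day array lay below every naïve array, though the highest, 8.14, was close to 8.21 in naïve array 2. At 7 days the ranges overlapped through array 2. Ccl27 fell by 2.06 at 14 days, 4.16-fold (SE 0.465, adjusted p = 0.00936), and fell by 1.75 at 7 days, 3.37-fold (SE 0.465, adjusted p = 0.0280). The 14-day call held with each array left out in turn, at -2.42 to -1.84. The 7-day call was lost without naïve array 4, 5 or 6 or 7-day array 1, 3 or 4, at -1.73 to -1.54 and adjusted p of 0.0547 to 0.0786. Naïve arrays 1 and 2, lowest in Ccl27, are those with the high hair follicle score, and 10 of the 11 genes in that score were higher at 14 days and none at 7 days. With that score as a covariate the difference was -0.64 at 14 days (adjusted p = 0.257) and -0.86 at 7 days, where it still passed (adjusted p = 0.0378). Without those 2 arrays it was -2.79 at 14 days (adjusted p = 7.49e-06) and -2.48 at 7 days (adjusted p = 0.000134). Without naïve arrays 4 and 5 it was -1.56 (adjusted p = 0.0543) and -1.26 (adjusted p = 0.156) at the same times, and neither passed. None of the 7 keratinocyte markers was called at either time. The receptor Ccr10 was dim, at 0.17 at 14 days (adjusted p = 0.0522) and 0.01 at 7 days.

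**Figure D4:**
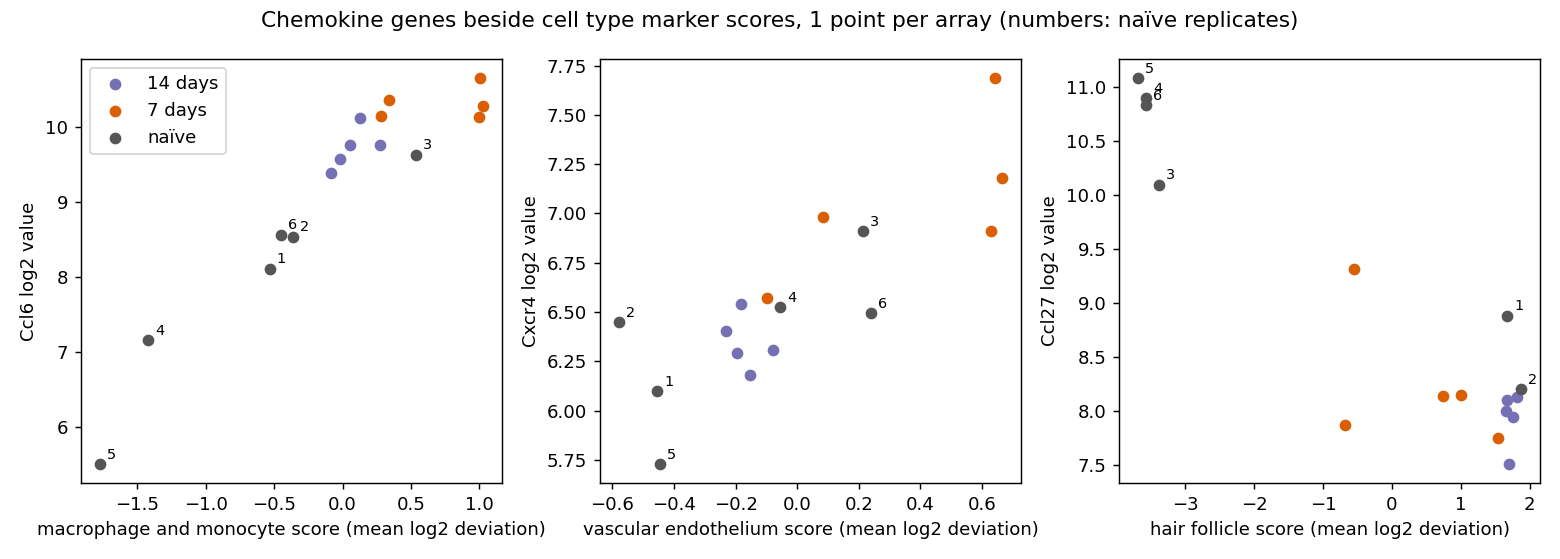
Log2 values of Ccl6, Cxcr4 and Ccl27 (vertical axes) against the macrophage and monocyte, vascular endothelium and hair follicle scores (horizontal axes, mean log2 deviation), with 1 point per array and naïve arrays numbered. The naïve arrays spread from 5.51 to 9.64 for Ccl6 along the macrophage score, and naïve arrays 1 and 2 stand apart from 3 to 6 on the hair follicle score.

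Of the other epithelial chemokines, Cxcl16 alone was called against naïve skin, at 14 days. Cxcl16, a membrane-bound ligand of Cxcr6, measured 8.86, 9.08, 8.84, 9.06 and 8.78 at 14 days and 9.10, 9.56, 9.16, 9.11 and 9.0 at 7 days. Its naïve arrays 1 to 6 measured 9.03, 8.95, 9.42, 9.54, 9.60 and 9.76, and arrays 1 and 2 lay in the 14-day range. Cxcl16 fell by 0.46 at 14 days (SE 0.142, adjusted p = 0.0320) and its 7-day difference was -0.20 (adjusted p = 0.358). The call was lost without any one of naïve arrays 3 to 6 or 14-day arrays 1, 3 and 5 (-0.45 to -0.39, adjusted p of 0.0536 to 0.0749), and with a covariate for the hair follicle score (-0.06). It was also lost after quantile normalization (-0.38, adjusted p = 0.0633) and without naïve arrays 4 and 5 (-0.37, adjusted p = 0.153). Without naïve arrays 1 and 2 Cxcl16 passed at both times, at -0.66 at 14 days (adjusted p = 0.000281) and -0.40 at 7 days (adjusted p = 0.013). With array weights it passed at 7 days too (-0.38, adjusted p = 0.0407).

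Cxcl14, made steadily by keratinocytes, measured 8.31, 8.45, 8.51, 8.49 and 8.34 at 14 days and 8.26, 8.49, 8.35, 7.84 and 7.84 at 7 days, against 8.22, 8.29 and 8.41 as lowest, median and highest in naïve skin. These values lie midway between 2 probesets, with 7-day means of 10.00 and 6.31. Its differences were 0.12 at 14 days (adjusted p = 0.416) and -0.14 at 7 days (adjusted p = 0.377), and the ranges overlapped. The difference of 14 minus 7 days was 0.26 (adjusted p = 0.102). It passed after quantile normalization (0.38, adjusted p = 0.03), with array weights (0.25, adjusted p = 0.0449) and without 7-day array 2 (0.35, adjusted p = 0.0429). The dimmer probeset passed alone (0.30, adjusted p = 0.0396), and the other did not (0.23, adjusted p = 0.332). Ccl28, a second Ccr10 ligand known from mucosal epithelium, was dim at 4.58, 4.72, 4.78, 4.49 and 4.63 at 14 days and 4.43, 4.34, 4.24, 4.39 and 4.41 at 7 days. Those groups did not overlap, and the difference of 14 minus 7 days was 0.28 (SE 0.0671, adjusted p = 0.0145). After quantile normalization it was 0.19 and did not pass (adjusted p = 0.0636). Against naïve skin it was 0.16 at 14 days (adjusted p = 0.0754) and -0.11 at 7 days (adjusted p = 0.246).

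Chemokines and receptors of T cells gave small differences. Ccr4, the receptor of Ccl17 and Ccl22 on skin-homing T cells, measured 4.77, 4.78, 4.63, 4.76 and 4.92 at 14 days and 4.66, 4.40, 4.5, 4.48 and 4.56 at 7 days, against 4.39, 4.54 and 4.60 as lowest, median and highest in naïve skin. It was dim on all groups' means, yet every 14-day array lay above every naïve array. Ccr4 rose by 0.25 at 14 days against naïve skin (SE 0.0603, adjusted p = 0.0138) and by 0.25 against 7 days (SE 0.0630, adjusted p = 0.0165). The first call was lost with the hair follicle covariate (0.27, adjusted p = 0.0906) and the second after quantile normalization (0.16, adjusted p = 0.109). Cxcr3, which reads Cxcl9, Cxcl10 and Cxcl11 on effector T cells, was also dim, at 4.85, 5.10, 4.94, 4.80 and 5.12 at 14 days, against 4.67, 4.77 and 4.83 as lowest, median and highest in naïve skin. The groups overlapped. Cxcr3 rose by 0.19 at 14 days (SE 0.0676, adjusted p = 0.0487). That call was lost on leaving out any naïve array, 7-day array 1, 2, 4 or 5, or 14-day array 2, 3 or 5, at 0.15 to 0.21 and adjusted p of 0.0517 to 0.126. Of 12 measured T and natural killer cell markers, 2 were higher at 14 days and 1 at 7 days, and their score was -0.01 to 0.15 at 14 days and -0.18 to 0.09 at 7 days, against -0.22 to 0.18 in naïve skin. Its part in these results was not tested.

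None of the interferon-induced ligands of Cxcr3 was called. Cxcl9 showed -0.62 at 14 days (adjusted p = 0.152) and 0.01 at 7 days, Cxcl10 showed 0.30 and 0.10, and Cxcl11 was dim. In naïve skin Cxcl9 stood at 5.13 and 5.08 in arrays 1 and 2 and at 6.32 to 6.57 in arrays 3 to 6, the same division as the hair follicle score. Without arrays 1 and 2 Cxcl9 was lower at 14 days by a difference of -1.07 (adjusted p = 0.00168). Ccl17, Ccl22 and Ccl20 were not called in any comparison, nor was Ccr6, the receptor of Ccl20, at -0.18 at 14 days and -0.30 at 7 days (adjusted p = 0.0702). Without naïve arrays 1 and 2 Ccr6 was lower at 14 days by a difference of -0.30 (adjusted p = 0.0106) and at 7 days by -0.43 (adjusted p = 0.00204). For Ccl22 a single probeset passed on its own at 14 days (0.29, adjusted p = 0.0322), and the other did not (0.05, adjusted p = 0.699). Ccl19 and Ccl21, which lead T cells and dendritic cells toward lymph nodes, were not called either, with Ccl21 at 0.44 at 14 days and 0.47 at 7 days. Xcl1, a lymphocyte product that attracts cross-presenting dendritic cells, was dim and not called.

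Among the genes of neutrophil recruitment only Cxcr1 was called. Of 5 measured neutrophil markers 2 were higher at 14 days and none at 7 days, with a score of 0.23 to 0.49 at 14 days and -0.32 to 0.25 at 7 days, against -0.57 to 0.36 in naïve skin, and their part in these values was not tested. The receptors Cxcr1 and Cxcr2 were dim. Cxcr1 measured 5.41, 5.37, 5.31, 5.26 and 5.37 at 14 days and 5.10, 5.14, 5.15, 5.12 and 5.24 at 7 days, against 5.19, 5.39 and 5.51 as lowest, median and highest in naïve skin. The 7-day arrays lay below all 14-day arrays and overlapped only naïve array 1. Cxcr1 fell by 0.23 at 7 days against naïve skin (SE 0.0572, adjusted p = 0.0217), and was higher at 14 than at 7 days by 0.19 (SE 0.0598, adjusted p = 0.0360). The 7-day call was lost without naïve array 4 (-0.22, adjusted p = 0.0517) or 7-day array 4 (-0.22, adjusted p = 0.0611), without naïve arrays 4 and 5 (-0.19, adjusted p = 0.123) and with the hair follicle covariate (-0.16, adjusted p = 0.0668). The difference between the times was lost without 7-day array 1, 2, 3 or 4 or 14-day array 1, 2, 3 or 5, at 0.18 to 0.20 and adjusted p of 0.0606 to 0.0758, and after quantile normalization (0.11, adjusted p = 0.199). Of the ligands, Cxcl1 varied most within groups, at 8.11, 5.68, 5.60, 5.70 and 6.92 at 14 days and 5.54, 8.55, 5.39, 5.59 and 6.66 at 7 days, against 4.93, 5.68 and 7.33 as lowest, median and highest in naïve skin. In each group 2 arrays stood above the others, the groups overlapped, and the differences of 0.47 at 14 days (adjusted p = 0.592) and 0.42 at 7 days (adjusted p = 0.673) did not pass. Cxcl2, Cxcl3 and Cxcl6 were not called, and 1 of the 5 probesets of Cxcl3 passed on its own at 14 days, with 0.21 (adjusted p = 0.0153).

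The fractalkine pair gave no call. Cx3cl1, a membrane-bound ligand also made by neurons and endothelium, measured 6.98, 7.14, 7.08, 7.19 and 7.09 at 14 days and 6.97, 7.14, 7.20, 6.90 and 7.22 at 7 days, against 6.94, 7.03 and 7.27 as lowest, median and highest in naïve skin. The groups overlapped throughout, and the 7-day difference of 0.00 had a 95% interval of -0.16 to 0.17. Its receptor Cx3cr1, found on resident macrophages, was dim at 5.21, 5.38, 5.31, 5.36 and 5.43 at 14 days and 5.36, 5.26, 5.67, 5.49 and 5.52 at 7 days, against 5.17, 5.25 and 5.39 in naïve skin as lowest, median and highest. The difference was 0.08 at 14 days (adjusted p = 0.427) and 0.20 at 7 days (adjusted p = 0.0755), and it passed without 7-day array 2 (0.25, adjusted p = 0.0323). The eosinophil ligands Ccl11 and Ccl24 and their receptor Ccr3 were not called against naïve skin. For Ccl11, which was dim, naïve array 3 stood at 6.05 while the others reached at most 4.55, and without that array it was higher at 7 days by 0.54 (adjusted p = 0.00322).

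A second question was which members differ between the times. At 14 against 7 days 3 members were higher (Ccl28, Ccr4 and Cxcr1) and 2 lower (Cxcl13 and Cxcr4), 12.2% against 18.9% of all genes. Called higher were 7.32% of members and 8.86% of genes, and called lower were 4.88% of members and 10.1% of genes. With array medians subtracted the first pair was 19.5% and 14.6%. The 3 higher members were all dim, with differences of 0.19 to 0.28, whereas the 2 lower ones were not. Groups did not overlap for 7 members (17.1%, against 20.7% of genes), namely these without Ccr4, and Ccl4, Ccl6 and Ccr3. The remaining 36 members were not called, and 14 members had an unadjusted p under 0.05. The median difference was 0.09 over inflammatory members, 0.06 over homeostatic members and -0.01 over all genes.

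Many members share a chromosome, and their order among the members is given here. Distances and genes lying between them were not compared. In RefSeq order on chromosome 10 the Ccl genes are Ccl2, Ccl7, Ccl11, Ccl5, Ccl9, Ccl6, Ccl3 and Ccl4. Of them Ccl6 was called at 7 days and Ccl6 and Ccl4 at 14 days. On chromosome 14 the order is Cxcl13, Cxcl11, Cxcl10, Cxcl9, Cxcl2, Cxcl1, Cxcl3 and Cxcl6, of which Cxcl13 was called at 7 days and none at 14 days. On chromosome 5 Ccl27 is followed by Ccl19 and Ccl21, and Ccl27 alone of these was called.

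Motifs were then counted in the 250 bases before the start of each gene, on both strands, for the 32 members with a RefSeq promoter. The motifs were picked after the values above were known. The NF-kB consensus was present in 9 of 32 members (28.1%) and in 6.33% of 33469 promoters. None of the 10 called members with a promoter held it, and the 9 others were Ccl20, Ccl7, Ccl9, Ccr3, Cxcl1, Cxcl10, Cxcl11, Cxcl2 and Cxcl6. TATAAA was present in 9 members (28.1%) and in 12.9% of promoters, and among called members in Ccl6, Cxcl13 and Cxcr4. The interferon element TTCNNNGAA was present in 4 members (12.5%) and 7.67% of promoters, the E-box CACGTG in 1 member (3.12%) and 5.59% of promoters, and ACGTG, which overlaps the E-box, in 4 members (12.5%) and 16.6% of promoters. These counts describe letters and not bound sites. The neutrophil chemokine Cxcl1 is shown as the example of the NF-kB letters, in capitals, on the minus strand at chr14:17479322-17479441.
Cxcl1: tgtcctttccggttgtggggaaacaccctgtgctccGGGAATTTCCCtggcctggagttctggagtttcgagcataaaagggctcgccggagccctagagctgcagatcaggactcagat

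Genes that work with chemokines were read from lists fixed by role. Over all genes 7.85% were called higher and 2.66% lower at 7 days, and 8.95% and 14.6% at 14 days. Calls on the listed genes were not followed with arrays left out. Of 10 chemokines, scavengers and receptors outside the symbol rule, 2 rose at 7 days, the platelet chemokine Pf4 by 1.72 (adjusted p = 0.0196) and Rarres2, which encodes chemerin, by 1.52 (adjusted p = 0.0182). At 14 days 1 fell, the scavenger Ackr4 by 0.80 (adjusted p = 0.00559). Of 15 receptor signaling genes 3 rose at 7 days, namely Arrb2 by 0.66, Gnai2 by 0.54 and Gng2 by 0.50, and Rgs2, which dampens G protein signals, fell by 0.51. At 14 days 2 rose, Arrb2 by 0.46 and Plcb2 by 0.22, and Rgs2 fell by 0.86 (adjusted p = 0.00198).

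Among 14 inducers of chemokine transcription Tlr2 rose by 1.28 (adjusted p = 0.00350) and Tlr4 by 0.69 (adjusted p = 0.0339) at 7 days. At 14 days none rose, and Nfkb1 fell by 0.26 and its inhibitor gene Nfkbia fell by 0.82 (adjusted p = 0.0430). These 2 of 14 stand against 14.6% of all genes called lower at 14 days. Of 11 genes for enzymes, proteoglycans and adhesion molecules 3 rose at 7 days, namely Vcam1, the endothelial ligand that arrests leukocytes, by 2.57 (adjusted p = 0.00295), Mmp14 by 1.15 and Dpp4, a protease that trims Cxcl12, by 1.04 (adjusted p = 0.0188). The proteoglycan Sdc4 fell by 0.62 (adjusted p = 0.000816). At 14 days Dpp4 rose by 0.96 (adjusted p = 0.0184), Mmp9 rose by 0.20 and Sdc4 fell by 0.55. Vcam1 was lower at 14 than at 7 days by a difference of -1.95 (adjusted p = 0.00881).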

How the data were processed

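The log2 values of 31099 probesets were deposited after RMA (robust multi-array averaging, done by the authors). The submitters' processing notes name R 3.0.1, and no RMA version is given in the sources used here. Left out were 57 control probesets, 9780 without a gene and 436 with more than 1 gene. The other 20826 were collapsed to the median per gene, with symbols updated through Entrez identifiers of the RefSeq GRCr8 annotation (20758 matched). The 41 members rest on 53 probesets, and 7 have several.

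In R 4.3.3, limma 3.58.1 fitted 1 model with a mean per group, and p-values were Benjamini-Hochberg adjusted over 14217 genes. The test was checked on simulated data. Given array by array are members past the threshold in any comparison and Ccl2, Cxcl12, Ccl27, Cxcl14, Cx3cl1, Cx3cr1, Ccr2 and Cxcr4. Ccr7, also on that list, was not analysed here. Cxcl1, Ccl7, Ccl11, Cxcl9 and Ccr6 were added after their values were seen. Members, roles and lists were chosen with earlier results of these data known. Samples are separate rats, as far as the labels say. Replicate numbers were not used to pair samples. Alternatives concerned probesets, dim genes, scaling, moderation, array weights, arrays in the model, a replicate block, a hair follicle covariate, thresholds and left-out arrays.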

Additional observations from a re-analysis of the deposited data

Results flagged for a closer look

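In 7 of 123 groups of arrays 1 array stood far from the others for a member, and chance alone marks about 1 in 20 groups. In naïve array 3 Cxcl13 was 9.07 (others at most 6.53) and Ccl11 was 6.05 (others at most 4.55), and this array also had the highest macrophage score of the naïve arrays. In 7-day array 2 Ccl27 was 9.31 (others at most 8.15) and Cxcl16 was 9.56 (others at most 9.16). At 14 days Ccl4 was 6.40 in array 5 (others at most 5.97), and Ccr1 was 5.49 in array 4 (others at least 5.89). In naïve array 2 Cxcl2 was 5.24 (others at most 4.38).

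For 5 members the difference from naïve skin was not the same at the 2 times by the direct limma comparison of 14 with 7 days. The 14-day difference minus the 7-day difference was -1.74 for Cxcl13, -0.72 for Cxcr4, 0.28 for Ccl28, 0.25 for Ccr4 and 0.19 for Cxcr1.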

How the results depend on the processing

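Counts of members called depended on the settings, given here as higher and lower. At 7 days against naïve skin (4 and 2) they were 0 and 0 in a model of only the groups compared and 1 and 0 both without naïve arrays 4 and 5 and at an adjusted p under 0.01. The lower count was 1 without the dimmest 25% of genes or with the hair follicle covariate, 4 with array weights or without naïve arrays 1 and 2, and 0 with the replicate block, and at an adjusted p under 0.1 the higher count was 7. At 14 days against naïve skin (5 and 2) the counts were 2 and 0 with the replicate block or without naïve arrays 4 and 5, 1 and 0 with the covariate, and 0 and 1 at 0.01. The higher count was 8 with every probeset on its own, 3 without the dimmest 25%, 2 with only the groups compared and 9 at 0.1, and the lower count was 1 after quantile normalization and 4 with array weights or without naïve arrays 1 and 2. At 14 against 7 days (3 and 2) the counts were 1 and 1 after quantile normalization, 7 and 5 with only the groups compared, 5 and 1 with the replicate block, 9 and 1 with the covariate, and 0 and 0 at 0.01. After quantile normalization Ccl28, Ccr4 and Cxcr1 were all lost. The higher member was then Cxcl14 (0.38, adjusted p = 0.03) and the lower one Cxcr4 (-0.69, adjusted p = 0.0399). The higher count there was 5 by probeset, 0 without the dimmest 25%, 8 with array medians subtracted, 10 with array weights, 6 without naïve arrays 1 and 2, and 10 at 0.1. Without naïve arrays 1 and 2 the 4 lower members were 9.76%, against 16.4% of genes at 7 days and 21.8% at 14 days. Over all genes 13.8% were then higher at 14 against 7 days. Without naïve arrays 4 and 5, 2.43% of genes were higher and 0.324% lower at 7 days, and 1.77% and 4.98% at 14 days. For most other settings no share over all genes was computed. Leaving out the dimmest 25% of genes removed the dim members before the test. Ccr4, Ccl28, Cxcr1 and Cxcr3 could therefore not be called in that setting, whatever their differences. Why the counts moved between the other settings was not tested.

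With 1 array left out, 1 to 8 members rose and 0 to 3 fell at 7 days, 1 to 5 rose and 1 to 3 fell at 14 days, and 2 to 5 were higher and 0 to 3 lower at 14 against 7 days. The inflammatory median was -0.02 to 0.16 at 7 days, 0.15 to 0.25 at 14 days and 0.08 to 0.18 between the times. The homeostatic median was -0.06 to -0.03, 0.11 to 0.16 and -0.11 to 0.16, with the -0.11 found without 7-day array 5. Without the dimmest 25%, and so over fewer members, the homeostatic median was 0.18 at 7 days and -0.17 at 14 against 7 days. The inflammatory median was then 0.40 at 14 days. Without naïve arrays 4 and 5 the homeostatic median at 14 days was 0.0217.

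None of the 18 differences called for a member changed direction in any setting, but uncalled ones near 0 did. With array medians subtracted Ccl4 at 7 days was -0.0239 and Cx3cl1 was -0.0701 at 7 days and -0.00791 at 14 days. With array weights these were -0.117, -0.0758 and -0.0547, and without naïve arrays 1 and 2 they were -0.0306, -0.0396 and -0.0303. After quantile normalization Cx3cl1 was -0.0747 and Ccr4 was 0.0434 at 7 days. With the covariate Ccr4 was 0.0090 and Cxcl16 was 0.0489 at 7 days, Cxcr1 was 0.0731 and Cxcr4 was 0.168 at 14 days, and Ccl27 was 0.228 at 14 against 7 days. Deviations of same-numbered arrays correlated from -0.552 to 0.583 and exceeded 0.1 in 8 of 15 pairs. Arrays with different numbers were not compared, so these values cannot decide whether the replicate numbers pair the samples. The replicate block gave 0.00263 for Cxcr4 at 14 days, and for Ccl27 -1.89 at 14 days (adjusted p = 0.0507) and -1.59 at 7 days (adjusted p = 0.101). Without naïve arrays 4 and 5 Ccr4 at 7 days was 0.00109, and at 14 days Cxcl13 was -0.0546 and Cxcr1 was 0.00335. With 1 array left out Ccr4 ranged from -0.0392 to 0.0249 and Cx3cl1 from -0.0300 to 0.0499 at 7 days, Cx3cl1 from -0.0146 to 0.0507 and Cxcr4 from -0.15 to 0.0856 at 14 days, and Cx3cl1 from -0.0369 to 0.0430 and Ccr2 from -0.0572 to 0.20 between the times.

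Over all genes the split of calls into higher and lower moved with the scaling. At 7 days it was 1116 and 378, 951 and 1492 with array medians subtracted, and 951 and 729 after quantile normalization. At 14 against 7 days it was 1260 and 1430, 2079 and 1005, and 903 and 733. Calls on the dim members Ccr4, Ccl28, Cxcr1 and Cxcr3 rest on differences of at most 0.28 near the lower end of the measured values.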
